A study of Homo sapiens with 12 samples.

Results

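The genes described here encode the enzymes that copy nuclear DNA during S phase: the 4 subunits of DNA polymerase α-primase (POLA1, POLA2, PRIM1 and PRIM2), the 3 larger subunits of DNA polymerase δ (POLD1, POLD2 and POLD3), the 2 larger subunits of DNA polymerase ε (POLE and POLE2), and the sliding clamp PCNA. They were selected by name, by a rule that uses no measured value, as 10 of the 59251 genes of a table of RNA-Seq read counts. The choice was nevertheless made with earlier results of these data known. All 10 passed the filter on low counts and were among the 13318 genes tested. The RNA came from HL60 cells, an established human myeloid leukemia line, so every value is from 1 line and its single genetic background. Non-treated cells were compared with cells given 1 µM ATRA (all-trans retinoic acid, a ligand of retinoic acid receptors), with cells given palbociclib, an inhibitor of CDK4 and CDK6 (CDK4/6i), at 1 µM, and with cells given both drugs at those doses (CDK4/6i+ATRA). Treatment lasted 48 h, and each of the 4 groups held 3 libraries labelled as biological replicates. The question the design poses is how the paired drugs change the transcriptome compared with each drug alone.

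Polymerase α-primase lays down the short RNA-DNA primers from which every new strand starts. Polymerase ε then extends the leading strand and polymerase δ the pieces of the lagging strand, both held on the template by PCNA, a ring that also gathers the enzymes that join those pieces and rebuild chromatin behind the fork. The genes of this machinery belong to the classical targets of E2F transcription factors, which the retinoblastoma protein holds in check until cyclin-dependent kinases, CDK4 and CDK6 among them, phosphorylate it.

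Because the members share that textbook link, their promoter windows were searched for an E2F-like motif (TTTCGCGC, TTTGGCGC, TTTCCCGC or TTTGCCGC, on either strand). Each window ran from 250 bases before to 50 bases after a RefSeq start site of the promoter table (GRCh38.p14). The outermost 5' ends of PRIM2 and POLD2 in the counted annotation lie outside these windows and were not searched. Of the 10 genes 9 matched an entry of the promoter table, which leaves POLD3. A match was present in 5 of these 9 genes, POLA1, POLA2, POLE, POLE2 and PCNA, compared with 3.99% of the 27305 genes of the promoter table and 3.31% of its 35116 windows. A further PCNA window, chr20:5119909-5120208, held 0 matches. Among the smaller subunits read for comparison below, POLE4 also held an E2F-like match (GCGGGAAA), whereas POLD4 and POLE3 held 0. The motif TTTGAA or TTCGAA, the cell cycle homology region, was found in 0 of the 9 genes and in 19.5% of all genes of the table. The CCAAT box (CCAAT) was found in 5 of 9 genes compared with 39.7% of all genes, and the GC box (GGGCGG) in 6 of 9 genes compared with 48.3%. Some of these matches overlap each other, as an E2F-like and a GC box match do in PCNA. These are matches of letters and carry no measurement of binding. The sequences below run from 150 bases before to 10 bases after the start site. They are shown for the 5 of the 9 genes with a match, in capitals, and for POLD1 and POLD2. In the windows of POLD1 and POLD2, whose levels are compared closely below, no E2F-like letters were found.
PCNA (chr20:5126613-5126772, minus strand): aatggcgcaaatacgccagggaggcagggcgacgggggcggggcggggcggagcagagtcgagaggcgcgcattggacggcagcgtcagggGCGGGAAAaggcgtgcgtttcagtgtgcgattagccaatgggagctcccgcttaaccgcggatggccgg
POLA1 (chrX:24693768-24693927, plus strand): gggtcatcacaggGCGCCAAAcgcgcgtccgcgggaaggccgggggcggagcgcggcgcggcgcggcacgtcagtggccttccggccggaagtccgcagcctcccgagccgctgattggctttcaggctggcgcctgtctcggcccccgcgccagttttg
POLA2 (chr11:65261812-65261971, plus strand): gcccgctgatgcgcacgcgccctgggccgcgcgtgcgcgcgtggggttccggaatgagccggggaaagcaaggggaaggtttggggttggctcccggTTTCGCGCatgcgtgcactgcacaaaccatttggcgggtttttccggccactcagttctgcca
POLE (chr12:132687333-132687492, minus strand): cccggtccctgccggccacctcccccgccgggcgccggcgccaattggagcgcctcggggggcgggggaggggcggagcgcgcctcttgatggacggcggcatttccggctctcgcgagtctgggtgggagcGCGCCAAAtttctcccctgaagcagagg
POLE2 (chr14:49688205-49688364, minus strand): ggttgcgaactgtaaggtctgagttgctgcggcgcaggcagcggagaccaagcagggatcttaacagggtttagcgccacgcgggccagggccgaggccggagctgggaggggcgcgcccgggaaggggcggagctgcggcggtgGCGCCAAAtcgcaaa
POLD1 (chr19:50384173-50384332, plus strand): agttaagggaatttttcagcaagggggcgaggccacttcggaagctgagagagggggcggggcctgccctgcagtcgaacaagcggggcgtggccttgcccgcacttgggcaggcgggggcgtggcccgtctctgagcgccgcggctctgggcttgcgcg
POLD2 (chr7:44123539-44123698, minus strand): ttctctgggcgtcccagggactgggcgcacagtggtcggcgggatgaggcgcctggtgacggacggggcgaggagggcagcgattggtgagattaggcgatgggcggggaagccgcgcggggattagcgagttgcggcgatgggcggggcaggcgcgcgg

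The libraries held 12230923 to 18679544 counts each. Levels are given as CPM, read counts scaled to the size of their library, after trimmed mean of M-values (TMM) normalization, which sets the libraries to a common typical gene. The 3 libraries with CDK4/6i+ATRA were the shallowest, at 12230923 to 14415276 counts, and had TMM factors of 0.840 to 0.893 compared with 1.03 to 1.07 elsewhere. The myeloid genes MPO, CD33, SPI1 and CSF3R were read in all libraries, whereas ELANE, AZU1 and PRTN3, granule protein genes of the same lineage that each sit on 2 contigs of the table, were listed at 0 throughout. Of 6 markers of other blood cells only CD3E passed the filter, and none of 4 markers of epithelium and fibroblasts did.

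In non-treated cells, PCNA and the polymerase δ subunits POLD2 and POLD1 gave the most reads among the 10 genes. Per kilobase of merged exons, PCNA stood at 199 ± 6.02 RPKM (CPM divided by exon length in kilobases, SD, n = 3), followed by POLD2 at 93.3 ± 2.25, POLD1 at 56.1 ± 0.635 and PRIM1 at 44.1 ± 0.829. POLE followed at 13.9 ± 0.774 RPKM and POLE2 at 11.9 ± 0.453. POLA2 at 10.9 ± 0.248 and POLD3 at 10.7 ± 0.658 differed by less than their spread. The lowest values, 4.10 ± 0.139 RPKM for POLA1 and 1.79 ± 0.0887 for PRIM2, rest on merged exon lengths of 28560 and 25774 bases. With the length of the MANE Select transcript, an alternative chosen after seeing the data, POLA1 stood at 21.3 and PRIM2 at 20.0 RPKM. The order of the lower genes also changed, with POLE2 and POLA2 both at 16.4, POLE at 15.5 and POLD3 at 13.7 RPKM, while PCNA (218), POLD2 (187) and POLD1 (78.8) remained the first 3.

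All 10 genes were lower with CDK4/6i+ATRA than in non-treated cells (edgeR quasi-likelihood test, Benjamini-Hochberg adjusted p under 0.05), where 40.7% of all tested genes were called lower and 41.0% higher. Their median log2 fold change was -3.48, beside 0.02 over all tested genes. No library with CDK4/6i+ATRA reached the lowest non-treated library for any of the 10 genes, a pattern held by 40.8% of the tested genes. With CDK4/6i alone all 10 genes were also lower, with a median log2 fold change of -1.71 (0.02 over all genes), and 27.9% of all tested genes were called lower. With ATRA alone 7 of the 10 genes were lower, the median being -0.32 (-0.03 over all genes), where the share called lower was 35.5% of all tested genes. In such bulk RNA, fewer cells in S phase and less of each transcript per cell cannot be told apart.

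**Figure D1:**
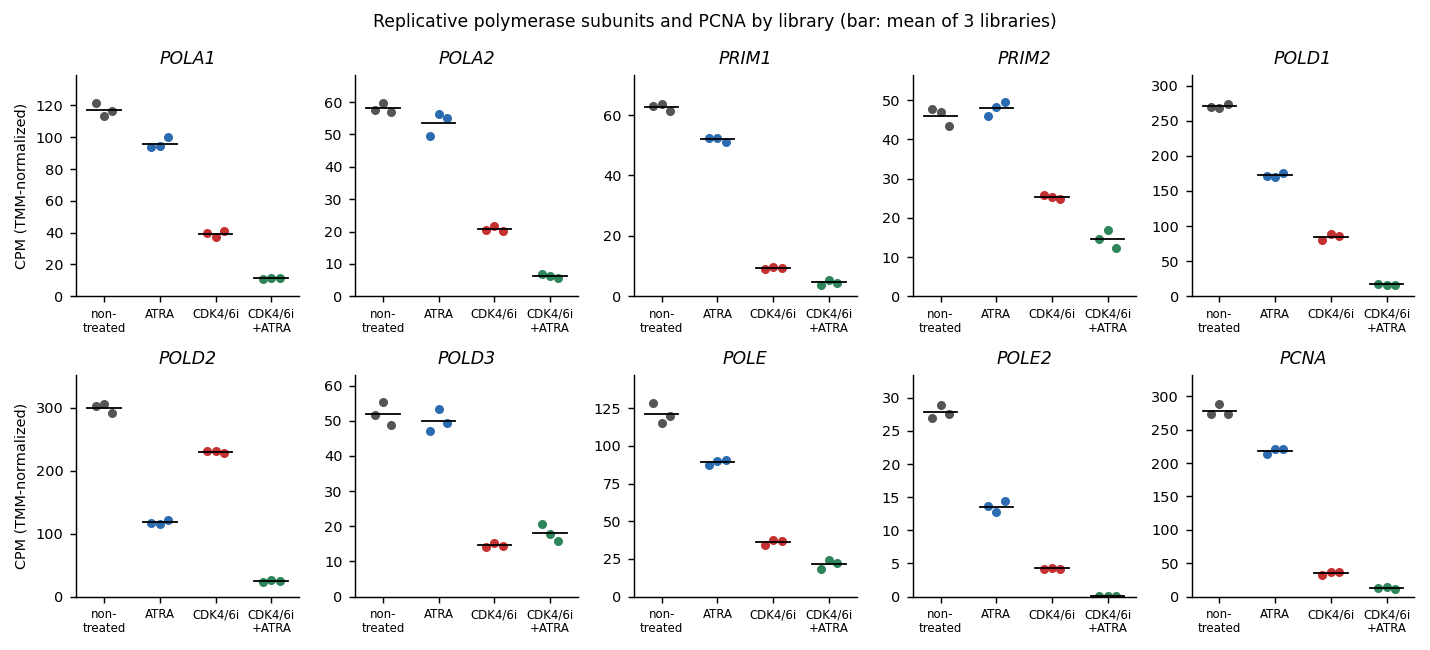
Each panel plots the TMM-normalized CPM (linear axis from 0) of 1 gene in the 12 libraries, as points by treatment group with a bar at the mean of 3 libraries. In every panel the libraries with CDK4/6i+ATRA lie far below the non-treated ones. POLD2 is the gene whose CDK4/6i libraries, at 227 to 232 CPM, stay above its ATRA libraries, at 115 to 121 CPM.

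PCNA, the clamp, measured 274, 288 and 274 CPM in the 3 non-treated libraries, 214, 221 and 221 CPM under ATRA, 32.8, 36.3 and 36.3 CPM under CDK4/6i, and 12.3, 14.0 and 11.7 CPM under CDK4/6i+ATRA. The 4 groups did not overlap and stood in that descending order. Compared with non-treated cells, its log2 fold change was -0.35 ± 0.04 (SE) with ATRA (adjusted p = 2.08e-11), -2.99 ± 0.05 under CDK4/6i (adjusted p = 3.28e-44) and -4.46 ± 0.06 with CDK4/6i+ATRA (adjusted p = 3.09e-48, all edgeR quasi-likelihood test). PCNA with CDK4/6i+ATRA was at 4.54% of its non-treated mean, the lowest percentage among the 10 genes after POLE2. Here and below, the SE of a log2 fold change is that change divided by the square root of its F statistic. After large falls to few counts, this SE can lie below counting error.

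Among the subunits of polymerase α-primase, POLA1, the catalytic DNA polymerase, measured 121, 113 and 116 CPM in non-treated cells, 93.6, 94.5 and 99.9 CPM under ATRA, 39.6, 37.1 and 41.0 CPM under CDK4/6i, and 11.1, 11.8 and 11.4 CPM under CDK4/6i+ATRA. The groups were separate in every pair. The log2 fold changes against non-treated cells were -0.29 ± 0.05 (adjusted p = 2.69e-07), -1.58 ± 0.05 (adjusted p = 3.14e-31) and -3.36 ± 0.07 (adjusted p = 1.13e-40, edgeR). POLA2, the regulatory B subunit, had a log2 fold change of -3.22 ± 0.09 with CDK4/6i+ATRA, its 95% interval overlapping that of POLA1, and went from 57.0 to 59.6 CPM to 5.62 to 6.87 CPM. With ATRA alone POLA2 had a log2 fold change of -0.11 ± 0.06, which did not pass the test (adjusted p = 0.0801, edgeR).

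PRIM1, the subunit that makes the RNA primer, measured 62.9, 63.8 and 61.4 CPM in non-treated cells, 52.5, 52.4 and 51.2 CPM under ATRA, 8.97, 9.66 and 9.48 CPM under CDK4/6i, and 3.85, 5.35 and 4.55 CPM under CDK4/6i+ATRA. Most of its change was already present with CDK4/6i alone, at a log2 fold change of -2.74 ± 0.07, and it reached -3.77 ± 0.09 with CDK4/6i+ATRA. PRIM2, the large primase subunit that carries an iron-sulfur cluster, measured 47.8, 47.0 and 43.5 CPM in non-treated cells, 46.1, 48.2 and 49.6 CPM under ATRA, 25.8, 25.4 and 24.8 CPM under CDK4/6i, and 14.7, 17.0 and 12.3 CPM under CDK4/6i+ATRA. The ATRA and non-treated libraries of PRIM2 overlapped (log2 fold change 0.06 ± 0.06, adjusted p = 0.419, edgeR). PRIM2 was lower at -0.86 ± 0.07 under CDK4/6i and at -1.65 ± 0.08 under CDK4/6i+ATRA, a smaller change than that of the other 3 subunits of its complex.

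Within polymerase δ the subunits followed different patterns. POLD1, which holds the polymerase and proofreading sites, measured 269, 269 and 274 CPM in non-treated cells, 171, 169.7 and 176 CPM under ATRA, 79.8, 88.6 and 86.5 CPM under CDK4/6i, and 17.97, 16.2 and 16.5 CPM under CDK4/6i+ATRA. POLD2, the accessory subunit that bridges POLD1 and POLD3, measured 302, 306 and 292 CPM in non-treated cells, 118, 115 and 121 CPM under ATRA, 231, 232 and 227 CPM under CDK4/6i, and 23.0, 26.7 and 24.8 CPM under CDK4/6i+ATRA. POLD2 had a larger log2 fold change with ATRA, -1.35 ± 0.04 (adjusted p = 1.33e-33) than with CDK4/6i, -0.38 ± 0.04 (adjusted p = 5.55e-13), with 95% intervals that did not overlap, whereas POLD1 changed by -0.65 ± 0.04 under ATRA and -1.67 ± 0.04 under CDK4/6i (edgeR quasi-likelihood test). With CDK4/6i+ATRA the log2 fold changes of POLD1 and POLD2 were -4.002 ± 0.056 and -3.59 ± 0.05.

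POLD3, a subunit that contacts PCNA, measured 51.6, 55.2 and 48.9 CPM in non-treated cells and 47.1, 53.5 and 49.3 CPM under ATRA. It measured 14.0, 15.3 and 14.4 CPM under CDK4/6i, and 20.5, 17.6 and 15.8 CPM under CDK4/6i+ATRA. The ATRA and non-treated groups overlapped (log2 fold change -0.05 ± 0.06, adjusted p = 0.466), and POLD3 was lower with CDK4/6i (-1.83 ± 0.08, adjusted p = 1.60e-26) and with CDK4/6i+ATRA (-1.53 ± 0.08, adjusted p = 2.81e-23, edgeR). Its change with CDK4/6i+ATRA was the smallest among the 10 genes, with PRIM2 next and their 95% intervals overlapping.

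Polymerase ε gave the gene with the lowest remaining level. POLE, the catalytic subunit, measured 128, 115 and 119.7 CPM in non-treated cells, 87.1, 90.3 and 90.5 CPM under ATRA, 34.0, 37.5 and 36.7 CPM under CDK4/6i, and 18.3, 24.0 and 22.3 CPM under CDK4/6i+ATRA, and with both drugs it had a log2 fold change of -2.49 ± 0.07 (adjusted p = 1.05e-35, edgeR). POLE2, the second subunit, measured 26.9, 29.0 and 27.5 CPM in non-treated cells, 13.6, 12.7 and 14.4 CPM under ATRA, and 4.20, 4.34 and 4.21 CPM under CDK4/6i. With CDK4/6i+ATRA each library held 1 read count of POLE2, or 3 counts in all. The pooled POLE2 level there was 317-fold below non-treated cells, with an exact 95% counting interval of 108 to 1538, and 48.5-fold below CDK4/6i alone (16.4 to 237). These intervals cover counting error only, and the fitted log2 fold change of -8.18 depends on the prior count of the model. ATRA alone changed POLE2 by -1.03 ± 0.09 (adjusted p = 1.15e-14) and CDK4/6i alone by -2.71 ± 0.11 (adjusted p = 3.43e-27, edgeR).

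**Figure D2:**
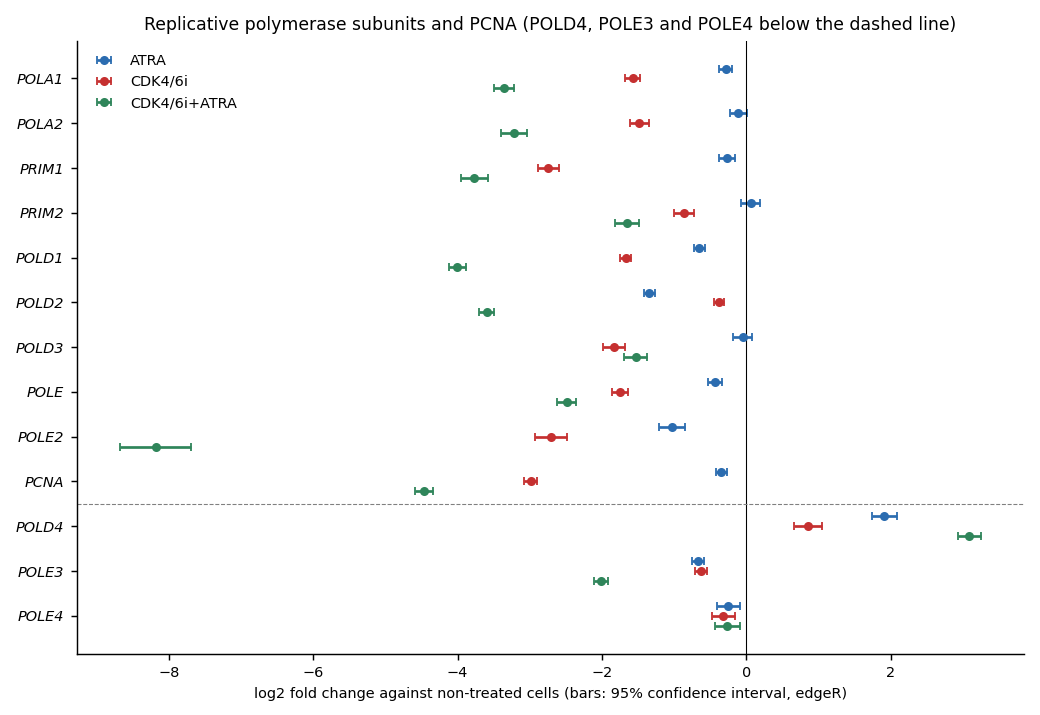
Points give the log2 fold change against non-treated cells for ATRA, CDK4/6i and CDK4/6i+ATRA. Bars give a 95% interval derived from the F statistic of the edgeR fit, which is too narrow where few counts remain. The POLE2 value for CDK4/6i+ATRA, -8.18, rests on 1 count in each library. POLD4, below the dashed line, lies to the right of 0 under all 3 treatments.

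Compared with CDK4/6i alone, CDK4/6i+ATRA gave lower levels of 9 of the 10 genes and a higher level of POLD3 (edgeR, adjusted p under 0.05), where 39.5% of the tested genes were called lower and 39.1% higher. The median log2 difference was -1.61 (0.00 over all genes). The difference of POLD2 was the widest after POLE2, at -3.21 ± 0.05 (adjusted p = 1.02e-44), followed by POLD1 at -2.33 ± 0.06 (adjusted p = 3.26e-35, edgeR). POLE, at -0.74 ± 0.08, and PRIM2, at -0.79 ± 0.09, changed least among the 9. The higher level of POLD3, 0.30 ± 0.09 (adjusted p = 0.00349), depended on the scaling, the filter and 1 library. With library size alone it was 0.03 (adjusted p = 0.822), with no filter on low counts 0.20 (adjusted p = 0.0830), and without CDK4/6i+ATRA replicate 1 it was 0.20 (adjusted p = 0.0792, edgeR). Library size alone moved the median of all tested genes in this comparison to -0.28. The value of POLD3 relative to that median stayed above 0, but taking it so restores a common typical gene, as TMM does. Compared with ATRA alone all 10 genes were lower, beside 32.8% of the tested genes, and the median was -3.09 (0.04 over all genes) in a range from -7.15 for POLE2 to -1.48 for POLD3.

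The interaction of the drugs asks whether the effect of ATRA differed with and without CDK4/6i on the log2 scale, that is, whether the level with both drugs departed from the product of the single-drug ratios. On this scale 9 of the 10 genes lay below the product and POLD3 above it (edgeR, adjusted p under 0.05), where 27.0% of the tested genes were called lower and 24.5% higher. POLD2 would have been at 90.5 CPM by the product and was measured at 24.8 CPM, an interaction of -1.87 ± 0.07 (adjusted p = 2.21e-28, edgeR). POLD1 would have been at 54.0 CPM and was at 16.9 CPM (-1.68 ± 0.08, adjusted p = 1.34e-24, edgeR). The genes of polymerase α followed, with -1.62 ± 0.12 for POLA2 and -1.49 ± 0.09 for POLA1, and PCNA had -1.13 ± 0.09. POLE2 would have been at 2.07 CPM, which is 23.7 times its pooled level with both drugs (exact 95% counting interval 8.10 to 115).

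The smallest departures were those of POLE, -0.30 ± 0.09 (adjusted p = 0.00449), and POLD3, 0.36 ± 0.11 (adjusted p = 0.00729, edgeR). Without CDK4/6i+ATRA replicate 1 they were -0.20 (adjusted p = 0.0627) and 0.25 (adjusted p = 0.0764), and with library size alone that of POLD3 was 0.04 (adjusted p = 0.810, edgeR). The effects were also added as CPM instead of multiplied (limma, adjusted p under 0.05). For PCNA, POLD1, POLE2 and PRIM1 the sum of the single effects lay below 0 CPM, where no level can lie, so this scale gives no reading of their direction. The same limit holds for POLE, whose sum of 4.41 CPM was no larger than the standard error of its departure (4.51 CPM) and whose measured level was 21.5 CPM. Of the other 5 genes POLA2, PRIM2 and POLD2 lay below the sum, as they did below the product, while POLA1 (adjusted p = 0.101) and POLD3 (adjusted p = 0.152, limma) did not pass.

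The ratio of CPM between subunits of 1 enzyme was read only as a comparison between groups. POLD3 relative to POLD1 was 0.192 ± 0.0137 (SD, n = 3) in non-treated cells, 0.290 ± 0.0215 under ATRA, 0.171 ± 0.00463 under CDK4/6i and 1.06 ± 0.0966 under CDK4/6i+ATRA. POLD2 relative to POLD1 was 1.11 ± 0.0389 in non-treated cells with values on opposite sides of it for the single drugs, 0.685 ± 0.00651 under ATRA and 2.72 ± 0.161 under CDK4/6i. It was 1.47 ± 0.182 under CDK4/6i+ATRA, above the non-treated libraries and below those with CDK4/6i.

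In polymerase α-primase the ratio of POLA2 to POLA1 was 0.497 ± 0.0256 in non-treated cells and 0.548 ± 0.0653 under CDK4/6i+ATRA, with overlapping libraries. PRIM2 relative to POLA1 was 0.394 ± 0.0201 in non-treated cells and 1.28 ± 0.187 under CDK4/6i+ATRA, while PRIM1 relative to POLA1 was 0.536 ± 0.0228 in non-treated cells, 0.239 ± 0.0182 under CDK4/6i and 0.400 ± 0.0537 under CDK4/6i+ATRA. With CDK4/6i+ATRA the libraries thus lay above the non-treated ones for PRIM2 and below them for PRIM1. POLE2 relative to POLE was 0.230 ± 0.0210 in non-treated cells, 0.152 ± 0.00973 under ATRA and 0.118 ± 0.00494 under CDK4/6i. Under CDK4/6i+ATRA it was 0.00414, on 1 count of POLE2 in each library, and this value depends on how so few counts are treated. Its log2 difference from non-treated cells was -5.81, and -3.12 with 0.5 CPM added to both genes. An exact two-sided permutation test of 3 against 3 libraries cannot go below p = 0.1 (0.12 after Benjamini-Hochberg adjustment over the 18 comparisons of a ratio with non-treated cells), so none could pass 0.05.

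**Figure D3:**
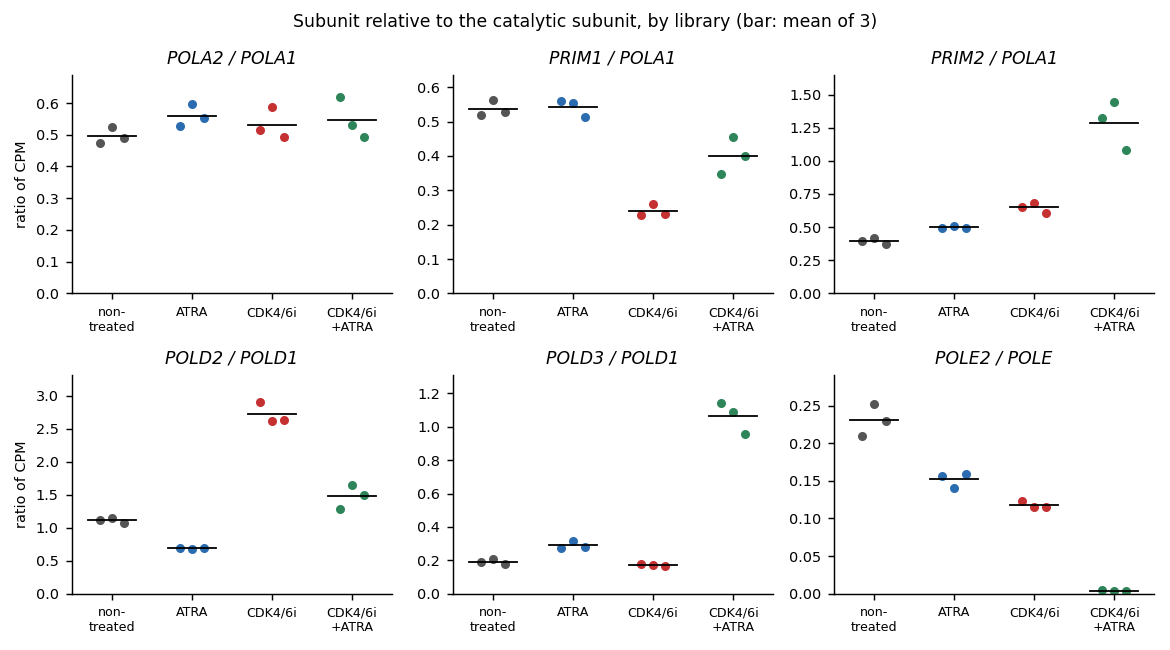
Each panel plots the CPM of a subunit divided by that of the catalytic subunit (linear axis from 0) in the 12 libraries, with a bar at the mean of 3. POLD3/POLD1 averages 1.06 with CDK4/6i+ATRA and lies between 0.166 and 0.315 in all other libraries, and POLA2/POLA1 lies between 0.475 and 0.620.

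The small subunits outside the 10 genes were read for comparison. POLD4, the smallest subunit of polymerase δ, whose protein is known to be degraded in S phase and after DNA damage, measured 9.98, 9.53 and 7.38 CPM in non-treated cells, 33.8, 33.0 and 33.9 CPM under ATRA, 15.2, 17.3 and 16.0 CPM under CDK4/6i, and 71.3, 79.3 and 77.4 CPM under CDK4/6i+ATRA. The groups were separate, and POLD4 rose under each treatment, by 1.91 ± 0.09, 0.86 ± 0.10 and 3.09 ± 0.08 on the log2 scale (adjusted p = 4.38e-25, 1.16e-10 and 1.46e-35, edgeR). POLE3, a histone-fold subunit of polymerase ε that also serves a chromatin remodeler, was lower with CDK4/6i+ATRA at a log2 fold change of -2.01 ± 0.05, as was its partner POLE4 at -0.26 ± 0.09 (adjusted p = 0.00435, edgeR).

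Genes that act beside the polymerases were read as lists. Of the loaders and the unloader of PCNA 8 of 9 genes were tested, CHTF8 being listed at 0, and all 8 were lower with CDK4/6i+ATRA (median log2 fold change -3.57, edgeR), beside 40.7% of all tested genes. DSCC1, of the alternative clamp loader, fell from 382 to 390 counts to 0 to 3 counts per library, a pooled ratio of 197 with an exact counting interval of 76.5 to 722. RFC3 (-4.53 ± 0.07) and, at the other end, RFC5 (-3.23 ± 0.10) and RFC1 (-1.88 ± 0.06) belong to the main loader.

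All 11 partners of PCNA in joining lagging-strand pieces and rebuilding chromatin were lower (median -3.53), beside the same 40.7%. CHAF1B, a histone chaperone subunit, went from 489 to 575 counts to 0 to 7 counts per library, and LIG1, the ligase of the lagging strand, changed by -4.63 ± 0.08. The least changed of them were PCLAF (-2.27 ± 0.05), a PCNA-binding factor, and RNASEH2C (-1.12 ± 0.06), a subunit of ribonuclease H2. All 14 helicase cofactors and organizers were lower as well (median -4.26, with 40.7% of all tested genes called lower), from CLSPN (-6.73 ± 0.13) and MCM10 (-6.71 ± 0.19) to TOPBP1 (-1.75 ± 0.05) and GINS3 (-1.50 ± 0.10).

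The single-strand binding proteins coat the template that the helicase opens. RPA3 was lower at -2.21 ± 0.09, RPA1 at -0.83 ± 0.05 and RPA2 at -0.79 ± 0.05, so that all 3 were called. Of 16 polymerases and cofactors of repair, translesion and mitochondrial synthesis, 11 were lower and 3 higher (median -0.66), beside 40.7% and 41.0% of all tested genes. POLQ, the polymerase of theta-mediated end joining, stood apart at -5.83 ± 0.15, followed by REV3L at -1.76 ± 0.07, the catalytic subunit of polymerase ζ. POLK, a translesion polymerase, was higher by 0.64 ± 0.09, and POLN by 3.53 ± 0.50, from 0 to 8 counts to 18 to 36 counts per library.

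**Figure D4:**
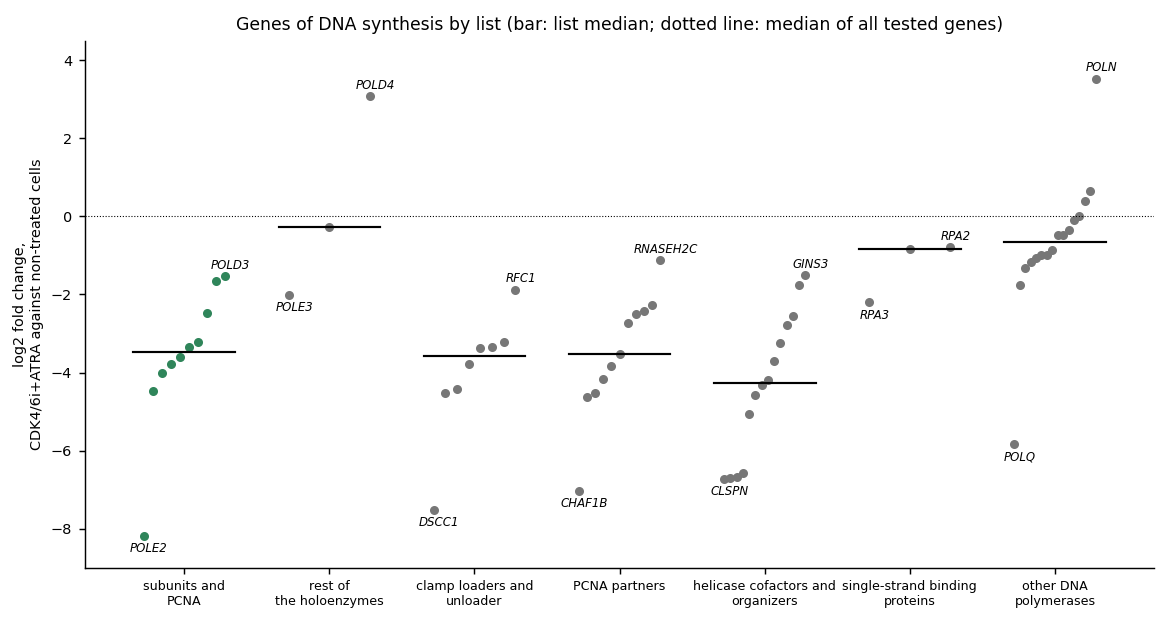
Each point is the log2 fold change of 1 tested gene between CDK4/6i+ATRA and non-treated cells, by list, with a bar at the list median and a dotted line at the median of all tested genes (0.02). The subunits together with PCNA have a median of -3.48, the clamp loaders -3.57, and the other DNA polymerases -0.66, with POLQ at -5.83.

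Across the 12 libraries, the genes whose pattern was most like the mean pattern of the 10 genes were HMGB1 (Pearson r = 0.9993), RDX (0.999), WEE1 (0.998), MCM7 (0.998) and DDX39A (0.998), among 9290 genes with at least 5 CPM on average. These correlations describe 12 libraries of 4 groups that share a treatment plan, and they do not compare the size of a change. RDX, for one, averaged 48.7 CPM in non-treated cells and 14.6 CPM under CDK4/6i+ATRA. HMGB1, an abundant chromatin protein gene, averaged 1552 CPM in non-treated cells, 1246 CPM under ATRA, 524 CPM under CDK4/6i and 193 CPM under CDK4/6i+ATRA. Each of the 10 genes was also set against the mean of the other 9. POLD2 (r = 0.766) and POLD3 (r = 0.814) followed it least, and the other 8 genes had r between 0.966 and 0.996.

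All 10 genes lie on 1 contig each in the table. POLA2 shares 889 exon bases with LOC105369344 on the opposite strand, which held 50 counts compared with 6996 for POLA2, and PCNA shares 373 bases with PCNA-AS1, which held 0 counts compared with 27564. Processed copies of the genes held few counts over the 12 libraries: 0 to 18 for PCNAP1 to PCNAP4, 30 for POLD2P1 and 19 for PRIM2BP.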

How the data were processed

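HL60 cells were treated for 48 h in 4 groups of 3 libraries and profiled with a directional RNA-Seq kit. The authors trimmed reads with Trimmomatic 0.33, aligned them to hg38 with STAR 2.7.11a and deposited raw counts per gene, with merged exon length (the unit other) beside them. The study's methods name RSEM for gene counts, whereas the table holds whole numbers in the column layout of featureCounts, so the counter and its use of strand are uncertain. Columns were mapped by the sample descriptions. Counts were tested with edgeR 4.0.16 in R 4.3.3 (filterByExpr, TMM, 1 quasi-likelihood model of the 4 groups with 8 residual degrees of freedom, Benjamini-Hochberg over 13318 genes, threshold 0.05). The common biological coefficient of variation was 3.70%. limma 3.58.1 tested additivity of CPM, and exact permutation tests compared subunit ratios. The alternatives were DESeq2 1.42.0, its size factors, library size alone, 2 filters, fits of only the groups compared, a replicate block, a pseudocount of 0.5 CPM for ratios, and leaving out each library. The fits were tested on simulated data. Libraries held 12230923 to 18679544 counts, and replicates differed by more than counting error (chi-square per degree of freedom 1.83 to 6.49). Same-numbered replicates did not deviate together (r between -0.089 and 0.055), so the numbers were not used as pairs.

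The 10 genes, the lists and the tests were chosen with earlier results of these data known. Named beside the 10 genes were the 2 lowest and 2 highest genes of each list with CDK4/6i+ATRA (all genes of lists of 3) and the 5 genes of most similar pattern with at least 5 CPM, on log2(CPM + 0.5). Promoter sequences are from RefSeq (GRCh38.p14).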

Additional observations from a re-analysis of the deposited data

Results flagged for a closer look

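The effect of ATRA differed with and without CDK4/6i for all 10 genes by the interaction term of the edgeR quasi-likelihood fit, on the log2 scale, where 27.0% of all tested genes were called lower and 24.5% higher. The differences were -1.49 for POLA1, -1.62 for POLA2, -0.76 for PRIM1, -0.85 for PRIM2, -1.68 for POLD1, -1.87 for POLD2, 0.36 for POLD3, -0.30 for POLE, -4.44 for POLE2 and -1.13 for PCNA. That of POLE2 was fitted on 1 count in each library with CDK4/6i+ATRA. The calls of POLE (adjusted p = 0.0627) and POLD3 (adjusted p = 0.0764, edgeR) were lost without CDK4/6i+ATRA replicate 1, and that of POLD3 also with no filter and, with the shift of all genes given below, with library size alone. On the linear scale of CPM the sums of PRIM1, POLD1, POLE2 and PCNA lay below 0 and that of POLE near 0 CPM, so the sign of their departures was not read.

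Among the remaining subunits of the same enzymes the difference was -0.71 for POLE3, 0.32 for POLD4 (adjusted p = 0.0204) and 0.30 for POLE4 (adjusted p = 0.0285, edgeR). With library size alone, which moved the median of all tested genes to -0.34, POLD4 was at 0.0044 (adjusted p = 0.983) and POLE4 at -0.016 (adjusted p = 0.922, edgeR), both above that median. The call of POLD4 was also lost with no filter (0.24, adjusted p = 0.181) and without non-treated replicate 1 or 2, CDK4/6i replicate 1 or CDK4/6i+ATRA replicate 2 (values of 0.23 to 0.29, adjusted p from 0.0559 to 0.149, edgeR). The call of POLE4 was also lost with no filter (0.22, adjusted p = 0.268, edgeR) and with DESeq2 (0.28, adjusted p = 0.0758). It was lost as well without non-treated replicate 1 or 2, ATRA replicate 1 or 2, CDK4/6i replicate 2, or CDK4/6i+ATRA replicate 1 or 2 (values of 0.24 to 0.30, adjusted p from 0.0502 to 0.111, edgeR).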

How the results depend on the processing

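Of 2071 results recomputed under alternatives, 2031 kept their direction, their side of the threshold or their value, 23 lost a call, 2 gained one, 9 levels per kilobase moved with the transcript length and 6 changed sign. A ratio counted as kept by its sign alone, and a number of genes called counted as kept if it stayed similar. The linear-scale interaction thus entered as 1 kept result, although POLA1 and POLD3 did not pass there and its directions were not compared. The replicate block changed no call: 7 of the 10 genes were called with ATRA and 10 in each of the other comparisons, as without it. DESeq2 and its size factors gave these counts as well. With at least 10 counts in every library POLE2 was not tested, leaving 6 genes called with ATRA and 9 in each other comparison. Leaving out 1 library gave 7 to 8 genes called with ATRA, 9 to 10 for CDK4/6i+ATRA against CDK4/6i alone and 8 to 10 for the interaction, the lowest without CDK4/6i+ATRA replicate 1. Without ATRA replicate 2, POLA2 was called lower with ATRA (-0.15, adjusted p = 0.0461, edgeR). POLD3 also lost its interaction call (0.27, adjusted p = 0.0757, edgeR) with no filter, and the cause was not tested.

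These sign changes concern POLE4 and 1 ratio, and the linear scale, where only the number of genes called was compared, is not among them. For POLE4, CDK4/6i+ATRA against CDK4/6i alone was 0.05 and became -0.22 with library size alone (adjusted p = 0.0202, edgeR) and -0.046 with no filter, its interaction of 0.30 became -0.016 with library size alone, and CDK4/6i+ATRA against ATRA alone ranged from -0.083 to 0.049 when 1 library was left out. The log2 ratio of PRIM1 to POLA1 with ATRA ranged from -0.0086 to 0.056 when 1 library was left out. Library size alone moved the median of all tested genes to between -0.25 and -0.34 in the comparisons that include CDK4/6i+ATRA, -0.28 against CDK4/6i alone and -0.34 in the interaction. For POLE4 against ATRA alone it gave -0.32 (adjusted p = 0.00127, edgeR), a gained call, where the median of all genes was -0.26. Relative to the medians the POLE4 values against CDK4/6i alone and in the interaction, and the POLD3 and POLD4 values whose calls were lost under that setting, remained above 0. Setting a value against the median restores a common typical gene, as TMM does, so it is no separate support for those values. Depth limits POLE2 and DSCC1 with both drugs, at 3 and 4 counts in all. Among the other genes named, it also limits CHAF1B (0 to 7 counts per library), MCM10 (2 to 7), CLSPN (7 to 10) and POLQ (6 to 16). The data are RNA of 1 cell line at 1 dose of each drug and 1 time, and cell cycle and protein measurements were not analysed here.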
